A study of Mus musculus with 18 samples.

Results

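Spic, Spi1 and Spib encode SPIC, PU.1 and SPI-B, the ETS transcription factors that make up the PU.1 branch of that family. Their expression was read from 18 arrays of cultured mouse pre-B cells. Every probe whose annotated symbol was Spic, Spi1 or Spib was taken, which gave 3 genes of the 16593 on the array and 4 probes of 25697. Spic had 2 probes, and Spi1 and Spib had 1 each. The arrays compared 3 genotypes in IL-7 and after IL-7 had been withdrawn for 2 days.

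After withdrawal the groups were Art-/-:Nfkb2-/-:IgH:Bcl2, Art-/-:IgH:Bcl2 and Rag-/-:IgH:Bcl2 cells, with 3 arrays each. The same 3 genotypes, again with 3 arrays each, were measured in IL-7. The design text describes 3 independent IL-7 cultures per genotype. The cells were grown for 7 to 10 days with 5 ng/mL IL-7 from bone marrow of mice aged 4 to 6 weeks, of mixed C57BL/6 and BALB/c descent. All 6 groups carried an immunoglobulin heavy chain transgene (IgH) and a Bcl2 transgene, so there was no group without these. The promoters of the transgenes and the number of mice per culture were not given in the sources used here. Below, the genotypes are called Art:Nfkb2-labelled, Art-labelled and Rag-labelled. The genotype field for the first of them carries no knockout mark on Nfkb2, and the sample titles were followed. Rag proteins cut the immunoglobulin light chain locus once IL-7 is gone, and Artemis (Art) opens the hairpin ends so that the break can be joined. By their labels, Art-labelled cells can make Rag breaks that stay unjoined and Rag-labelled cells cannot make them. No break was measured on these arrays.

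PU.1 and SPI-B bind DNA through the same ETS domain at purine-rich sites with a GGAA core. In B cells they activate genes of the B cell receptor pathway together with partners such as IRF4 and IRF8. SPIC binds the same kind of site and is best known from red pulp macrophages of the spleen. In B cells it has been described as counteracting PU.1 and SPI-B at shared target genes, among them Syk and Blnk.

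No promoter-side sequence of Spi1 was available. The promoter-side sequences of Spic and Spib are printed because the Art-labelled genotypes differed in Nfkb2, whose protein product binds kappa-B sites. They are RefSeq sequences on GRCm38.p6, minus strand, from 250 to 51 bases before the start of transcription, 5′ to 3′. Capitals mark a match to the kappa-B consensus.
Spic, chr10:88683074-88683273: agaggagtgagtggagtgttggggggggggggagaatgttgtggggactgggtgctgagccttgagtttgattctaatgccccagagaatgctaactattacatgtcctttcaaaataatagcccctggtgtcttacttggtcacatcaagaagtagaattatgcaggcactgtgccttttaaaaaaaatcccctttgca
Spib, chr7:44532122-44532321: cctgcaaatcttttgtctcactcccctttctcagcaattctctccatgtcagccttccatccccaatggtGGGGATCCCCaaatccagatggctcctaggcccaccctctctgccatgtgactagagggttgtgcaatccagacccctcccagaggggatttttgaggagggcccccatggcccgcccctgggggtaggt
The window searched ran from 250 bases before to 50 bases after the start, 300 bases in all, on both strands. The kappa-B consensus was present 1 time in the Spib window, at -180 to -171, where it reads the same on both strands, and 0 times in the Spic window. It was found in 4.51% of 32851 mouse promoters of this length. The PU.1-type motif GAGGAAGT (3.2% of promoters) and its shorter form GAGGAA (28.3%), which is contained in it, were in neither window. A match is a run of letters and was not tested as a binding site.

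The members lay at different detection levels. Detection means a detection p below 0.01, the share of negative control beads as bright as the probe. Spi1 and Spib were detected on 18 of 18 arrays. The brighter Spic probe, ILMN_2854004, was detected on 3 of 18 arrays, which were the 3 Art-labelled arrays after withdrawal, and it passed the filter on dim probes through that group alone. The second Spic probe, ILMN_2652608, was detected on 0 of 18 arrays, with raw intensities of 104 to 141 and a lowest detection p of 0.0952. It was not tested and does not bear out the differences of the first probe. Values below are normalized log2 signals, in which the faintest detected probes of an array lay at 5.98 to 6.38. In bulk cultures, fewer cells of a type and less RNA per cell cannot be told apart.

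**Figure D1:**
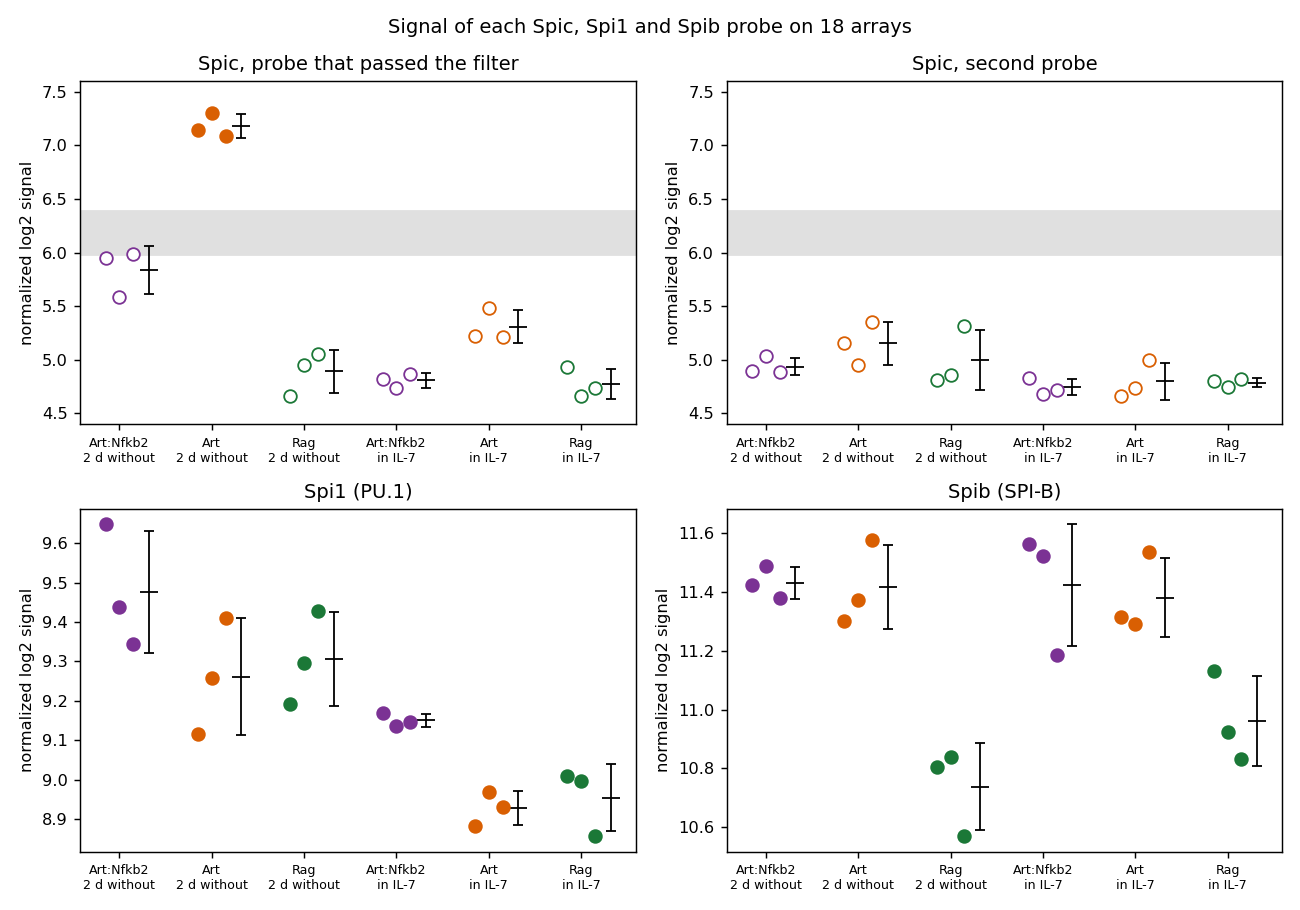
Normalized log2 signal (vertical axis) of the 4 probes on each of 18 arrays, by genotype and IL-7 (horizontal axis, withdrawn groups on the left). Filled points were detected and open points were not, bars give the group mean ± SD (n = 3), and the grey band spans the faintest detected probes of the 18 arrays (5.98 to 6.38). Only the 3 Art-labelled arrays without IL-7 lie above the band for Spic, and the 6 Rag-labelled arrays lie below the other genotypes for Spib.

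SPIC, the least detected member, was brightest in Art-labelled cultures after IL-7 withdrawal. Its log2 signals there were 7.15, 7.31 and 7.09 (7.18 ± 0.11, SD, n = 3), with detection p of at most 0.00125. Art:Nfkb2-labelled cultures gave 5.95, 5.58 and 5.99 after withdrawal (5.84 ± 0.22), and Rag-labelled cultures gave 4.66, 4.95 and 5.06 (4.89 ± 0.20). The Art-labelled arrays lay above those of both other genotypes. Neither of these other genotypes detected the probe on any array, so they are given no order.

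In IL-7 all 9 arrays were dim. Art:Nfkb2-labelled cultures gave 4.82, 4.73 and 4.87 for Spic, Art-labelled cultures 5.22, 5.48 and 5.22, and Rag-labelled cultures 4.93, 4.66 and 4.73. None of these arrays detected it, so the genotypes in IL-7 are given no order. The raw intensities behind the detected values were small too, at 226 to 260 in Art-labelled cultures after withdrawal, against 145 to 195 in Art:Nfkb2-labelled and 123 to 125 in Rag-labelled cultures.

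Withdrawal raised Spic in Art-labelled cultures by 1.87 on the log2 scale (SE 0.13, limma adjusted p = 1.93e-08), at least 2.00-fold. This bound sets the bright group against the higher of the faintest detected signal and the probe's own value on each dim array. Of all 8446 entries tested, 26.2% were called higher and 18.8% lower in that comparison, at an adjusted p of 0.05. In Art:Nfkb2-labelled cultures the difference was 1.03 (SE 0.13, limma adjusted p = 1.68e-05), where 22.7% were called higher and 17.9% lower. Neither of those groups was well above background, so no fold is given, although 2 of the 3 withdrawn arrays had a detection p below 0.05. In Rag-labelled cultures it was 0.12 (95% interval -0.16 to 0.39, limma adjusted p = 0.497), where 25% were called higher and 19.4% lower. Centring arrays on the median over all probes moved the share of Rag-labelled calls that were higher from 56.2% to 33.8%, and the median of all genes in that comparison by -0.11.

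Between genotypes after withdrawal, Spic was higher in Art-labelled than in Rag-labelled cultures by 2.29 (SE 0.13, limma adjusted p = 1.85e-08), at least 1.80-fold, where 10.1% of entries were called higher and 8.89% lower. It was lower in Art:Nfkb2-labelled than in Art-labelled cultures by 1.34 on the log2 scale (the fitted value was -1.34, SE 0.13, limma adjusted p = 1.12e-05), at least 1.85-fold. That last comparison had few calls, with 1.78% of entries higher and 2.21% lower. Centring on the median over all probes moved its share of higher calls to 56.6% from 44.5%. The fitted difference of Art:Nfkb2-labelled minus Rag-labelled cultures was 0.95 (SE 0.13, limma adjusted p = 5.13e-05), but neither group was well above background, so it is no measured size. In that comparison 12.6% were called higher and 13% lower. These 5 calls of Spic were kept under every one of 39 alternatives. The alternatives draw on the same arrays, and Spic passed the filter only through Art-labelled cultures after withdrawal. Keeping the calls is therefore no separate support.

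The withdrawal responses of the genotypes were also set against each other. For Spic these are fitted values at the edge of detection: of the groups compared, only Art-labelled cultures after withdrawal detected the probe, and that group let it into the tests. The fitted response of Art-labelled minus Rag-labelled cultures was 1.76 (SE 0.18, limma adjusted p = 6.53e-04), in a comparison with 1.27% of entries called. That of Art:Nfkb2-labelled minus Rag-labelled cultures was 0.92 (SE 0.18, limma adjusted p = 0.0150), where 1.94% were called and none of the 4 groups detected the probe. This second difference was lost without culture 1 (0.87, adjusted p = 0.101) or culture 3 (0.87, adjusted p = 0.0736) of the Art:Nfkb2-labelled cultures, and under 3 changes of processing, among them no background correction (0.38, adjusted p = 0.120). The response of Art:Nfkb2-labelled minus Art-labelled cultures was -0.84 (95% interval -1.23 to -0.45), which was not called (limma adjusted p = 0.0880), where 0.213% of entries were. With the culture as a block, which the replicate numbers allow, it was called (adjusted p = 0.0473). The block also raised the calls over all entries to 363 from 107 for Art-labelled minus Rag-labelled, to 92 from 18 for Art:Nfkb2-labelled minus Art-labelled, and to 431 from 164 for Art:Nfkb2-labelled minus Rag-labelled responses.

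In IL-7, Spic was called 0.53 higher in Art-labelled than in Rag-labelled cultures (limma adjusted p = 0.0215, 6.46% of entries called). It was called 0.50 lower in Art:Nfkb2-labelled than in Art-labelled cultures (fitted value -0.50, limma adjusted p = 0.0396, 4.39% called). No array of these groups detected the probe, and the calls were lost under 11 and 19 of 39 alternatives. Without Art-labelled IL-7 replicate 2 the differences were 0.44 (adjusted p = 0.0963) and -0.41 (adjusted p = 0.147). Art:Nfkb2-labelled and Rag-labelled cultures differed by 0.03 in IL-7 (95% interval -0.24 to 0.31), where 11.4% were called.

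**Figure D2:**
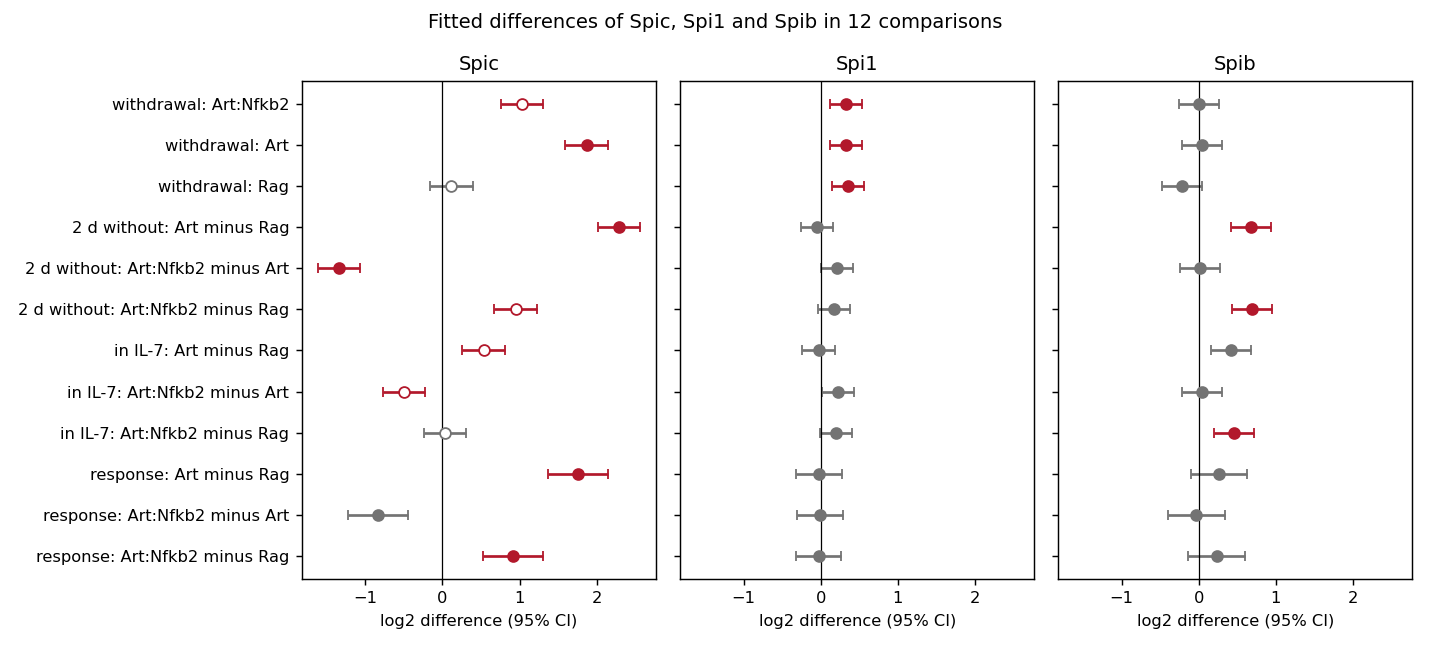
Fitted log2 differences of Spic, Spi1 and Spib (horizontal axis) with 95% confidence intervals, in 12 comparisons (vertical axis). Red marks an adjusted p below 0.05 and grey the rest. Open points are comparisons between groups in which neither group detected the probe. Differences between withdrawal responses are drawn filled whether or not the probe was detected. Spic ranges from -1.34 to 2.29, while Spi1 lies within -0.05 to 0.35 and Spib within -0.22 to 0.69.

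SPI-B differed by genotype and was not called with withdrawal. Its log2 signals after withdrawal were 11.42, 11.49 and 11.38 in Art:Nfkb2-labelled cultures (11.43 ± 0.05, SD, n = 3), 11.30, 11.37 and 11.58 in Art-labelled cultures (11.42 ± 0.14) and 10.80, 10.84 and 10.57 in Rag-labelled cultures (10.74 ± 0.15). In IL-7 they were 11.56, 11.52 and 11.19 in Art:Nfkb2-labelled cultures, 11.31, 11.29 and 11.54 in Art-labelled cultures and 11.13, 10.92 and 10.83 in Rag-labelled cultures. The 6 Rag-labelled arrays were below the 12 others, which overlapped each other.

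After withdrawal Spib was 1.60-fold higher in Art-labelled than in Rag-labelled cultures (log2 0.68, SE 0.12, limma adjusted p = 8.93e-04). It was 1.62-fold higher in Art:Nfkb2-labelled than in Rag-labelled cultures (log2 0.69, SE 0.12, limma adjusted p = 5.18e-04). Both calls held under all 39 alternatives. Art:Nfkb2-labelled and Art-labelled cultures differed by 0.01, with a 95% interval of -0.25 to 0.27.

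In IL-7, Spib was 1.38-fold higher in Art:Nfkb2-labelled than in Rag-labelled cultures (limma adjusted p = 0.0220). That call was lost under 10 of 39 alternatives, among them leaving out Rag-labelled IL-7 replicate 2 (adjusted p = 0.0674) or 3 (0.0946), or Art:Nfkb2-labelled IL-7 replicate 1 (0.101) or 2 (0.0913). The Art-labelled minus Rag-labelled difference in IL-7 was 0.42 (limma adjusted p = 0.0540), not called as fitted and called with the culture as a block (adjusted p = 0.0444). Withdrawal differences of Spib were 0.01 in Art:Nfkb2-labelled, 0.04 in Art-labelled and -0.22 in Rag-labelled cultures, with 95% intervals of -0.25 to 0.27, -0.22 to 0.30 and -0.48 to 0.04. None of the 3 differences between responses was called, at 0.26 for Art-labelled minus Rag-labelled, -0.03 for Art:Nfkb2-labelled minus Art-labelled and 0.23 for Art:Nfkb2-labelled minus Rag-labelled cultures.

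PU.1 was slightly higher after withdrawal in each genotype. The log2 signals of Spi1 after withdrawal were 9.65, 9.44 and 9.34 in Art:Nfkb2-labelled cultures, 9.11, 9.26 and 9.41 in Art-labelled cultures and 9.19, 9.30 and 9.43 in Rag-labelled cultures. In IL-7 they were 9.17, 9.14 and 9.15 in Art:Nfkb2-labelled cultures, 8.88, 8.97 and 8.93 in Art-labelled ones and 9.01, 9.0 and 8.86 in Rag-labelled ones. Within each genotype the withdrawn arrays did not overlap those in IL-7, while the genotypes overlapped after withdrawal.

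The withdrawal difference of Spi1 was 1.25-fold in Art:Nfkb2-labelled (log2 0.33, limma adjusted p = 0.0152), 1.26-fold in Art-labelled (0.33, adjusted p = 0.0119) and 1.28-fold in Rag-labelled cultures (0.35, adjusted p = 0.00916), each with an SE of 0.10. These small differences did not hold everywhere. The Art:Nfkb2-labelled call was lost without withdrawn replicate 1 (0.24, adjusted p = 0.0839), without culture 1 (0.25, 0.131) and without culture 2 (0.34, 0.0688). The Art-labelled call was lost without withdrawn replicate 3 (0.26, adjusted p = 0.0624) and without culture 3 (0.26, 0.109), and the Rag-labelled call without culture 3 (0.24, 0.126). Centring on the median over all probes also ended the call in Art-labelled (0.33, adjusted p = 0.0731) and Rag-labelled cultures (0.23, 0.220). Differences between genotypes ran from -0.05 to 0.22 and none was called. For Art-labelled minus Rag-labelled cultures after withdrawal the difference was -0.05, with a 95% interval of -0.25 to 0.16. The responses differed by -0.02, -0.01 and -0.03 between genotypes, with 95% intervals within -0.32 to 0.29.

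The order of the groups differed between the members. Spic was highest in Art-labelled cultures after withdrawal (7.18), and the other 5 groups, in which no array detected it, averaged 4.78 to 5.84 and are given no order. Spib had 4 groups at 11.38 to 11.43 with overlapping arrays, above Rag-labelled cultures in IL-7 (10.96) and after withdrawal (10.74). Spi1 had its withdrawn groups at 9.26 to 9.48 and its IL-7 groups at 8.93 to 9.15. Levels of different probes are not comparable with each other on these arrays, so no ratio of PU.1 to SPI-B or SPIC is given.

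Sex-linked genes moved with the genotype. The Y-linked gene Eif2s3y was detected on 1 of 3 Art:Nfkb2-labelled, 0 of 3 Art-labelled and 3 of 3 Rag-labelled arrays after withdrawal, with the same counts in IL-7, and Xist was detected on the other arrays. The Art:Nfkb2-labelled culture with Y-linked signal was culture 3, with 5.99 for Spic and 11.38 for Spib after withdrawal. Rag-labelled cultures, all with Y-linked signal, had 4.66 to 5.06 and 10.57 to 10.84 there. Art:Nfkb2-labelled cultures 1 and 2, with Xist signal, had 5.95 and 5.58 for Spic, and the Art-labelled cultures, all with Xist signal, 7.09 to 7.31. For Art-labelled against Rag-labelled cultures, sex and genotype cannot be told apart.

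Genes with the pattern most like each member were taken by Pearson correlation over the 18 arrays, as a description. The arrays share genotype and culture, and 15 of the 18 Spic values were not well above background. For Spic they were the unnamed probe ILMN_2686513 (r = 0.915), Ell3, an elongation factor of the ELL family (0.909), Adipoq, the adiponectin gene (0.905), Ctc1, a telomere maintenance gene (0.904), and Wipi1, an autophagy gene (0.90). Wipi1 averaged 7.57 in Art:Nfkb2-labelled, 8.32 in Art-labelled and 6.73 in Rag-labelled cultures after withdrawal, a pattern that its choice by correlation fixes. Adipoq was detected on 3 of 3 Art-labelled arrays after withdrawal, 1 of 3 Art:Nfkb2-labelled arrays after withdrawal and none of the others. This pattern is likewise fixed by the choice of Adipoq.

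For Spib the nearest patterns were those of Cyb561a3, a lysosomal cytochrome (r = 0.933), Ccrl2, an atypical chemokine receptor (0.930), Pml, which builds nuclear bodies (0.922), Pold4, a DNA polymerase delta subunit (0.911), and Pld4, a lysosomal nuclease (0.905). Cyb561a3 averaged 12.18 in Art:Nfkb2-labelled, 12.24 in Art-labelled and 10.81 in Rag-labelled cultures after withdrawal, a pattern that its choice by correlation fixes. For Spi1 they were Ppdpf (0.940), Gpsm3, a G protein signalling modulator (0.932), Eral1 of mitochondrial ribosome assembly (0.90), Gnpat of plasmalogen synthesis (0.892) and 1810009A15Rik (0.891). The withdrawal difference of Ppdpf, likewise fixed by that choice, was 0.62 in Art:Nfkb2-labelled, 0.49 in Art-labelled and 0.51 in Rag-labelled cultures.

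Genes listed as B-lineage targets of PU.1 and SPI-B did not move one way between genotypes. Of 13 tested (14 had a probe), 2 were higher and 3 lower in Art-labelled than in Rag-labelled cultures after withdrawal, 1 was higher and 0 lower in Art:Nfkb2-labelled than in Art-labelled cultures, and 3 were higher and 3 lower in Art:Nfkb2-labelled than in Rag-labelled cultures. The list medians were -0.26, 0.10 and -0.12, beside -0.01, 0.00 and -0.01 over all entries. Of all entries, 10.1%, 1.78% and 12.6% were called higher in the same order, and 8.89%, 2.21% and 13% lower. With withdrawal, 4 were higher and 1 lower in Art:Nfkb2-labelled cultures, and 5 higher and 0 lower in Art-labelled cultures. In Rag-labelled cultures 3 were higher and 0 lower. The medians were 0.31, 0.35 and 0.22 in the same order of genotypes, beside 0.09, 0.11 and 0.10 over all entries. Of all entries, 22.7%, 26.2% and 25% were called higher with withdrawal, and 17.9%, 18.8% and 19.4% lower. With 13 genes tested and no test of the list, these counts are no result about it.

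Syk, the kinase that starts pre-B cell receptor signalling, rose with withdrawal in every genotype, by 0.65 in Art:Nfkb2-labelled, 0.67 in Art-labelled and 0.72 in Rag-labelled cultures (limma adjusted p of 0.00298, 0.00205 and 0.00135). After withdrawal it averaged 8.90 ± 0.36 in Art:Nfkb2-labelled, 8.80 ± 0.11 in Art-labelled and 9.37 ± 0.20 in Rag-labelled cultures (SD, n = 3 each). It was lower in Art-labelled than in Rag-labelled cultures (-0.57, limma adjusted p = 0.0129) and in Art:Nfkb2-labelled than in Rag-labelled cultures (-0.47, limma adjusted p = 0.0294). The Art-labelled call was lost without Rag-labelled withdrawn replicate 3 (-0.46, adjusted p = 0.0648) or Art-labelled withdrawn replicate 2 (-0.52, 0.0563), and the Art:Nfkb2-labelled call under 9 of 39 alternatives. Art:Nfkb2-labelled minus Art-labelled Syk was 0.10, with a 95% interval of -0.22 to 0.42. In IL-7 Syk stood at -0.52 in Art-labelled minus Rag-labelled cultures (limma adjusted p = 0.0491), and the withdrawal responses differed by -0.05 (95% interval -0.50 to 0.40).

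Blnk, the adaptor that SYK phosphorylates, averaged 12.48 ± 0.14 in Art:Nfkb2-labelled, 12.53 ± 0.21 in Art-labelled and 12.93 ± 0.41 in Rag-labelled cultures after withdrawal (SD, n = 3 each). Art-labelled minus Rag-labelled was -0.40 (95% interval -0.78 to -0.02, limma adjusted p = 0.140) and was not called. Btk, a kinase downstream of both, was not called in any of the 6 comparisons above, with a genotype difference of 0.09 for Art-labelled minus Rag-labelled cultures. Il7r, the IL-7 receptor chain, was lower in Art:Nfkb2-labelled than in Rag-labelled cultures after withdrawal by 1.15 on the log2 scale (fitted value -1.15) and lower in Art-labelled than in Rag-labelled cultures (-0.79, limma adjusted p = 0.00472). Ebf1, a B cell specification factor, was lower by the same comparisons, at -1.38 in Art:Nfkb2-labelled and -0.83 in Art-labelled minus Rag-labelled cultures.

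Fcer2a, which encodes the mature B cell receptor CD23, and Ciita, the activator of MHC class II genes, were higher in the Art-labelled genotypes. Fcer2a averaged 8.56 ± 0.34 in Art:Nfkb2-labelled and 7.47 ± 0.33 in Art-labelled cultures after withdrawal, and was not well above background in Rag-labelled cultures (5.46 ± 0.22, SD, n = 3 each). It was at least 4.68-fold higher in Art:Nfkb2-labelled and at least 2.19-fold higher in Art-labelled than in Rag-labelled cultures. Between Art:Nfkb2-labelled and Art-labelled cultures it was higher by 1.09 (limma adjusted p = 0.00124), while Spic was lower. Ciita was higher in Art:Nfkb2-labelled than in Rag-labelled cultures by 1.84 (limma adjusted p = 0.00149). Its Art-labelled minus Rag-labelled difference was 1.41 (adjusted p = 0.0130), a call that did not hold without Rag-labelled withdrawn replicate 2 (1.02, 0.0601) or Art-labelled withdrawn replicate 2 (1.30, 0.0539).

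**Figure D3:**
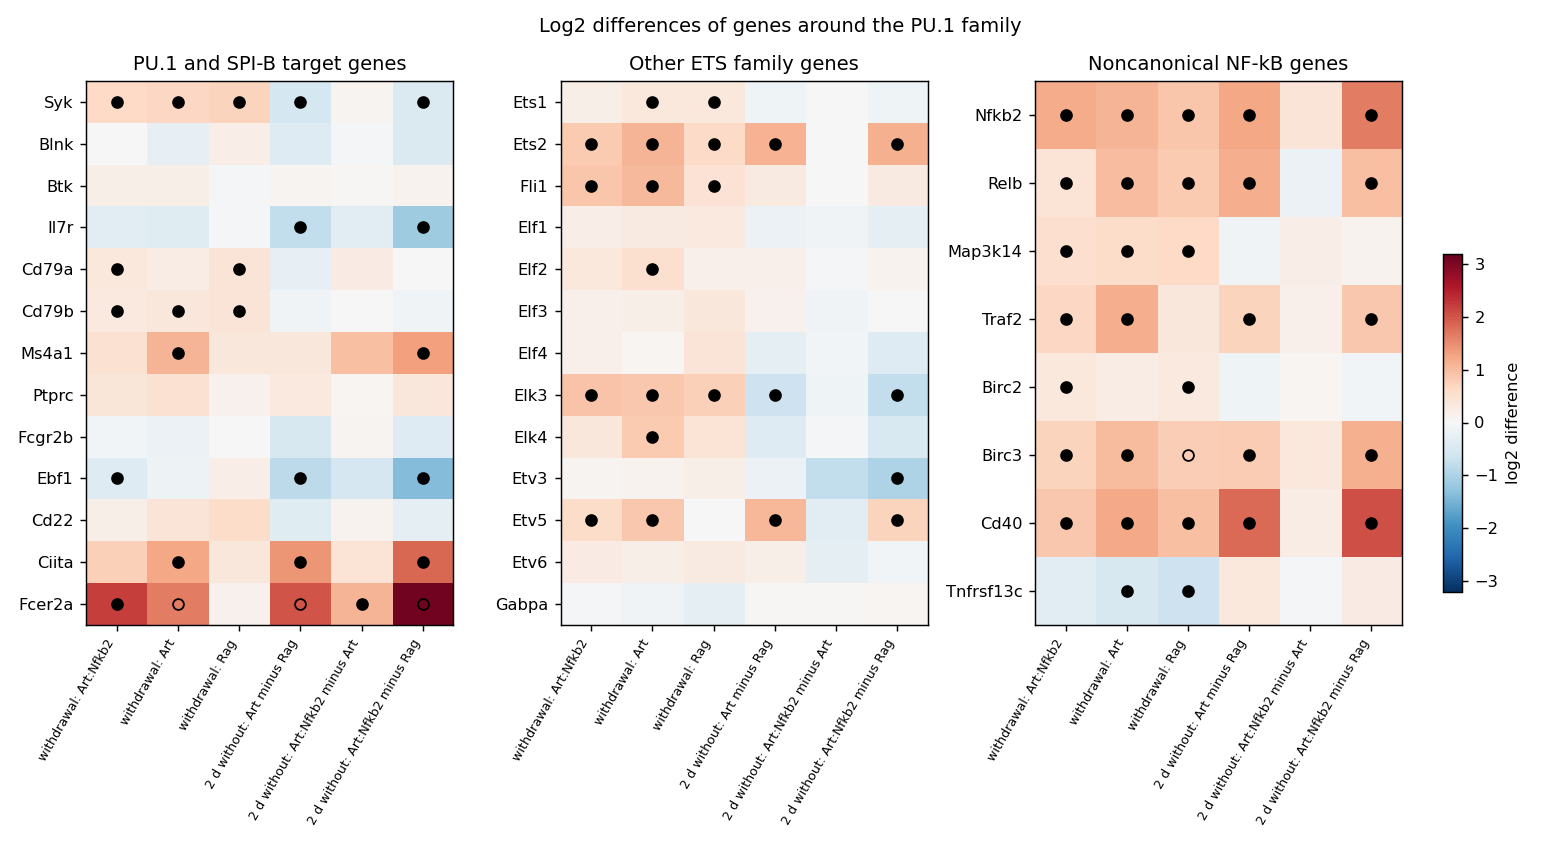
Log2 differences (colour scale) of tested genes in 3 lists (rows) for 6 comparisons (columns): targets of PU.1 and SPI-B on the left, other ETS genes in the middle, noncanonical NF-kB genes on the right. Filled dots mark calls with both groups measured and open dots calls with a group not well above background. In the column for Art:Nfkb2-labelled minus Art-labelled cultures after withdrawal, the 1 call is Fcer2a.

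Among the rest of the ETS family, calls with withdrawal were all upward, at a share near that of all entries in 2 of the 3 genotypes. Of 13 other ETS genes tested (21 had a probe), 4 rose and 0 fell in Art:Nfkb2-labelled cultures. In Art-labelled cultures 7 rose and 0 fell, and in Rag-labelled cultures 4 rose and 0 fell. Of all entries, 22.7%, 26.2% and 25% were called higher in the same order of genotypes, and 17.9%, 18.8% and 19.4% lower. With 13 genes tested and no test of the list, these counts are no result about it. Centring on the median over all probes gave 3, 6 and 1 calls higher in the same order of genotypes. Ets2 rose by 0.84 in Art:Nfkb2-labelled, 1.09 in Art-labelled and 0.62 in Rag-labelled cultures, and Fli1 by 0.89, 1.04 and 0.47 in that order of genotypes. The Rag-labelled call was lost for Fli1 under 13 of 39 alternatives and for Ets2 without culture 2 (0.44, adjusted p = 0.0783).

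Between genotypes after withdrawal, 2 other ETS genes were higher and 1 lower in Art-labelled than in Rag-labelled cultures. In Art:Nfkb2-labelled cultures 0 and 0 were called against Art-labelled cultures, and 2 and 2 against Rag-labelled cultures. Of all entries, 10.1%, 1.78% and 12.6% were called higher in the same order, and 8.89%, 2.21% and 13% lower. Ets2 averaged 11.93 ± 0.17 in Art:Nfkb2-labelled, 11.92 ± 0.15 in Art-labelled and 10.80 ± 0.12 in Rag-labelled cultures (SD, n = 3 each), an Art-labelled minus Rag-labelled difference of 1.12. Etv5 was 1.07 higher in Art-labelled than in Rag-labelled cultures. None of these ETS genes was called between Art:Nfkb2-labelled and Art-labelled cultures after withdrawal, where Etv3 stood at -0.78 (limma adjusted p = 0.0511).

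Partners and regulators of PU.1 in B cells, a list that includes Spi1 and Spib, were mixed. Of 18 tested, 2 were higher and 2 lower in Art-labelled than in Rag-labelled cultures after withdrawal. In Art:Nfkb2-labelled cultures 1 was higher and 0 lower than in Art-labelled cultures, and 4 and 4 than in Rag-labelled cultures. Of all entries, 10.1%, 1.78% and 12.6% were called higher in the same order, and 8.89%, 2.21% and 13% lower. Bcl11a, a B cell factor, was 1.09 higher in Art:Nfkb2-labelled and 0.84 higher in Art-labelled than in Rag-labelled cultures. Id3, an inhibitor of E proteins, was 1.09 higher in Art:Nfkb2-labelled than in Art-labelled cultures. Irf4, the DNA-binding partner of PU.1 and SPI-B, was 0.49 lower on the log2 scale in Art:Nfkb2-labelled than in Rag-labelled cultures (fitted value -0.49), and Irf8 was not called between genotypes (0.02 to 0.18).

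With withdrawal, 4 partner genes were higher and 6 lower in Art:Nfkb2-labelled, 3 higher and 3 lower in Art-labelled and 3 higher and 5 lower in Rag-labelled cultures. Over all entries, 22.7%, 26.2% and 25% were called higher and 17.9%, 18.8% and 19.4% lower in the same order. With 18 genes tested and no test of the list, these counts are no result about it. Foxo1, which drives light chain recombination genes, rose by 0.72 in Art:Nfkb2-labelled, 0.89 in Art-labelled and 0.99 in Rag-labelled cultures. Gfi1b, a repressor that antagonises PU.1 target genes, was detected on all 9 arrays in IL-7 and on none after withdrawal, with log2 means of 5.51, 5.78 and 5.64 after withdrawal against 7.93, 8.62 and 8.29 in IL-7 for Art:Nfkb2-labelled, Art-labelled and Rag-labelled cultures. Gfi1, its paralog, fell by 1.18 in Art:Nfkb2-labelled, 1.23 in Art-labelled and 0.70 in Rag-labelled cultures, with the Rag-labelled call lost when only the groups compared were fitted (adjusted p = 0.0584) and without culture 1 (-0.47, adjusted p = 0.0810).

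Most tested noncanonical NF-kB genes, the pathway of which Nfkb2 is a part, were called higher in both Art-labelled genotypes. Of 8 tested (9 had a probe), 5 were higher and 0 lower in Art-labelled than in Rag-labelled cultures after withdrawal, and 5 and 0 in Art:Nfkb2-labelled than in Rag-labelled cultures, with medians of 0.76 and 0.92. The medians over all entries were -0.01 in both, where 10.1% and 12.6% of entries were called higher and 8.89% and 13% lower. Map3k14, Birc2 and Tnfrsf13c were not called, at 0.11, -0.08 and 0.27 in Art:Nfkb2-labelled and -0.10, -0.14 and 0.33 in Art-labelled minus Rag-labelled cultures. Between Art:Nfkb2-labelled and Art-labelled cultures 0 were called, where 1.78% of all entries were called higher and 2.21% lower. With withdrawal, 7 rose and 0 fell in Art:Nfkb2-labelled, 6 rose and 1 fell in Art-labelled and 6 rose and 1 fell in Rag-labelled cultures. Beside these, 22.7%, 26.2% and 25% of all entries were called higher and 17.9%, 18.8% and 19.4% lower. Cd40, a receptor that triggers the pathway, averaged 13.76 ± 0.19 in Art:Nfkb2-labelled, 13.52 ± 0.33 in Art-labelled and 11.71 ± 0.34 in Rag-labelled cultures (SD, n = 3 each). Relb, the partner of the Nfkb2 product, was 0.96 higher in Art:Nfkb2-labelled and 1.16 higher in Art-labelled than in Rag-labelled cultures.

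The signal of Nfkb2 itself was 9.21 ± 0.18 in Art:Nfkb2-labelled, 8.80 ± 0.05 in Art-labelled and 7.56 ± 0.09 in Rag-labelled cultures after withdrawal (SD, n = 3 each). It was thus not lower in the cells labelled as lacking Nfkb2. Whether its probe lies inside the deleted part is not known here, so this signal checks neither the label nor the loss of the protein.

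Genes tied to SPIC in red pulp macrophages were mixed. Of 9 tested (14 had a probe), 1 was higher and 1 lower in Art-labelled than in Rag-labelled cultures after withdrawal, 0 were called in Art:Nfkb2-labelled against Art-labelled cultures, and 0 changed with withdrawal in Art-labelled cultures. In Art:Nfkb2-labelled against Rag-labelled cultures 2 were higher and 1 lower. Of all entries, 10.1% were called higher and 8.89% lower in Art-labelled minus Rag-labelled cultures. The shares were 1.78% and 2.21% in Art:Nfkb2-labelled minus Art-labelled cultures. They were 12.6% and 13% in Art:Nfkb2-labelled minus Rag-labelled cultures, and 26.2% and 18.8% with withdrawal in Art-labelled cultures. In the response of Art-labelled minus Rag-labelled cultures 1 was higher and 0 lower, with a list median of 0.58 beside 0.00 over all entries. For that response 1.27% of all entries were called. Blvra, a biliverdin reductase, was 0.63 higher, and Blvrb, another, was lower (-0.87) in Art-labelled than in Rag-labelled cultures. Hmox1, the haem oxygenase of these macrophages, was detected after withdrawal on 0 of 3 Art-labelled, 2 of 3 Art:Nfkb2-labelled and 1 of 3 Rag-labelled arrays. A link of these genes to Spic was not tested.

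Macrophage and granulocyte markers had their lowest group median, a summed signal of 1174, where Spic was brightest, although 1 Rag-labelled array after withdrawal lay lower still (565). The summed signal of 15 such markers was 1044 to 1190 in Art-labelled cultures after withdrawal, against 2354 to 2719 in Art-labelled cultures in IL-7. It was 2106 to 3425 in Art:Nfkb2-labelled and 565 to 2685 in Rag-labelled cultures after withdrawal, and in IL-7 it was 5190 to 8726 in Art:Nfkb2-labelled and 2092 to 7971 in Rag-labelled cultures. Of 11 tested, 7 fell with withdrawal in Art:Nfkb2-labelled, 3 in Art-labelled and 7 in Rag-labelled cultures, and none was called between genotypes after withdrawal. Beside these, 17.9%, 18.8% and 19.4% of all entries were called lower with withdrawal. Between genotypes after withdrawal, 10.1% of all entries were called higher and 8.89% lower in Art-labelled minus Rag-labelled cultures. The shares were 1.78% and 2.21% in Art:Nfkb2-labelled minus Art-labelled cultures, and 12.6% and 13% in Art:Nfkb2-labelled minus Rag-labelled cultures. Adgre1, which encodes F4/80, was detected on 9 of 18 arrays. These were 3 of 3 Art:Nfkb2-labelled arrays in both conditions and some Rag-labelled arrays, but no Art-labelled array. The sums include undetected probes, and in Art-labelled cultures after withdrawal 13 of the 15 markers were detected on no array. The part of such cells in Spic was not tested. Nor was their part in Spi1, whose product they also make.

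**Figure D4:**
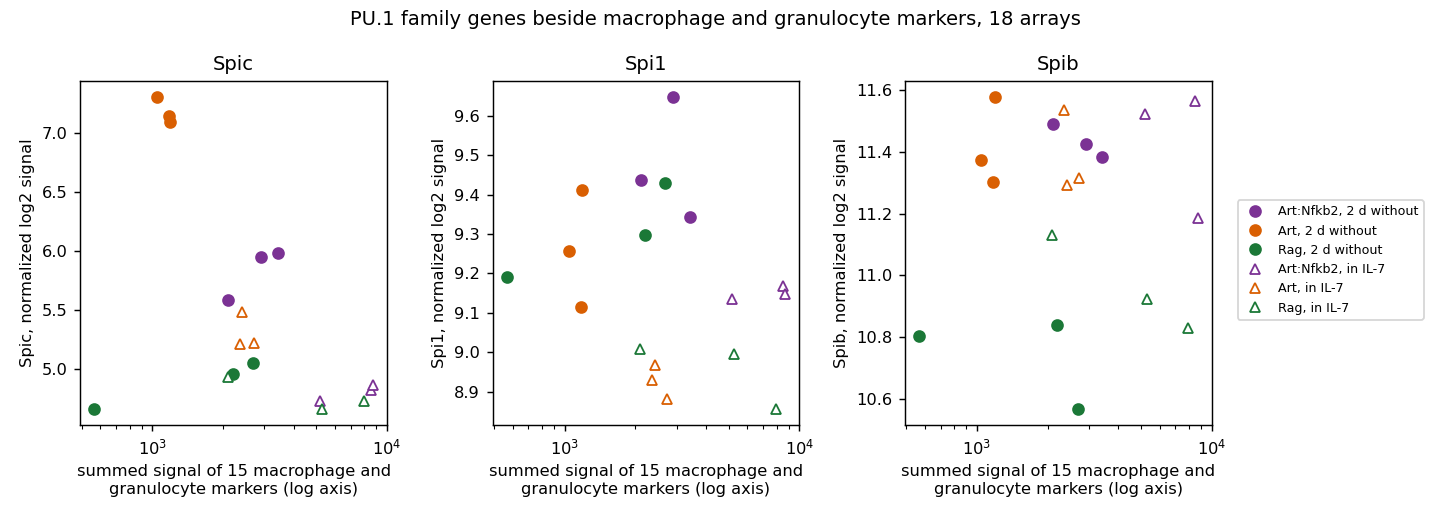
Normalized log2 signal of each member (vertical axes) against the summed signal of 15 macrophage and granulocyte markers (horizontal log axis) on 18 arrays; filled circles are withdrawn cultures, open triangles cultures in IL-7, colours the genotypes. The 3 Art-labelled withdrawn arrays combine the highest Spic with a marker sum of 1044 to 1190.

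The plasmacytoid dendritic markers, relevant because these cells also express Spib, summed to 1473 to 2254 in Art:Nfkb2-labelled, 2119 to 2294 in Art-labelled and 1467 to 3574 in Rag-labelled cultures after withdrawal. In IL-7 the sums were 1968 to 3081 in Art:Nfkb2-labelled, 2817 to 3376 in Art-labelled and 2927 to 3809 in Rag-labelled cultures. The groups overlapped after withdrawal, and the part of such cells in Spib was not tested. Siglech, a defining marker, averaged 8.82 ± 0.53 in Art:Nfkb2-labelled, 9.18 ± 0.04 in Art-labelled and 9.25 ± 0.88 in Rag-labelled cultures after withdrawal (SD, n = 3 each). Of 7 such markers tested, 0 were higher and 1 lower in Art-labelled than in Rag-labelled cultures after withdrawal. Over all entries the shares were 10.1% and 8.89%. Of 8 conventional dendritic markers, 6 were detected on no array. The other 2, Xcr1 and Ccr7, were called higher with withdrawal in all 3 genotypes, as Spi1 was. Ccr7 rose by 0.63 in Art:Nfkb2-labelled, 0.97 in Art-labelled and 0.54 in Rag-labelled cultures. The fitted Xcr1 values were 0.58, 0.75 and 0.71 in that order, near background. In IL-7 its probe was detected on 2 of 3, 1 of 3 and 0 of 3 arrays in that order. In Rag-labelled cultures 1 of 3 withdrawn arrays detected it, so that difference is only a bound of at least 1.18-fold. Over all entries 22.7%, 26.2% and 25% were called higher with withdrawal. The part of Xcr1 and Ccr7 expressing cells in the Spi1 difference was not tested.

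The labelled cell type was visible in its markers. Of 11 pre-B cell markers with a probe, 8 to 10 were detected on all arrays of each group, and 10 were tested. After withdrawal 0 were higher and 4 lower in Art-labelled than in Rag-labelled cultures, and 0 and 4 in Art:Nfkb2-labelled than in Rag-labelled cultures. The list medians were -0.78 and -0.94, beside -0.01 in both over all entries. Of all entries 10.1% and 12.6% were called higher and 8.89% and 13% lower. Vpreb1, a surrogate light chain gene, averaged 9.75 ± 0.47 in Art:Nfkb2-labelled, 11.26 ± 0.45 in Art-labelled and 12.50 ± 0.29 in Rag-labelled cultures.

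Mature B cell markers moved with the genotype. Of 5 tested, 3 were higher and 0 lower in Art-labelled than in Rag-labelled cultures after withdrawal (median 0.47), and 4 higher and 0 lower in Art:Nfkb2-labelled than in Rag-labelled cultures (median 1.24). In Art:Nfkb2-labelled against Art-labelled cultures 2 were higher and 0 lower (median 0.77). Of all entries, 10.1%, 12.6% and 1.78% were called higher in the same order of comparisons, and 8.89%, 13% and 2.21% lower. The summed signal of 7 such markers after withdrawal was 26915 to 32917 in Art:Nfkb2-labelled, 29694 to 36772 in Art-labelled and 15466 to 26199 in Rag-labelled cultures, and the Rag-labelled arrays did not overlap the others. Their part in the Spic and Spib differences was not tested.

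Between 10091 and 10894 probes (39.3 to 42.4%) were detected per array, and arrays of a group correlated at 0.979 to 0.993.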

How the data were processed

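Total RNA of pre-B cells, grown as 3 independent cultures per genotype and taken in IL-7 and after withdrawal, was hybridised to 18 single-colour Illumina MouseRef-8 arrays. The authors deposited each probe’s intensity before normalization, with the detection p-value of that probe on that array. Per the labels, RNA was purified with RNeasy kits and labelled with biotin. Partek and GenomeStudio are named, per the submitters' processing notes, without version or role. The authors also deposited background-subtracted intensities that they had normalized. Their method was not given in the sources used here, and about 29.5 to 29.7% of values per array were negative. These were used only as an alternative.

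From the deposited intensities, neqc (limma 3.58.1, R 4.3.3) subtracted background by normexp, using the detection p-values, added an offset of 16, normalized by quantiles and gave log2 values. The offset understates differences of dim genes. A probe entered the tests if 3 or more arrays detected it at p below 0.01, as 11356 of 25697 did. The brightest probe stood for a gene, which gave 8446 entries, 673 of them named by probe only. Of the probes, 23978 had 1 symbol and 1719 none, and 23962 matched the reference by Entrez gene. Columns of per-sample values not used: 0. A model of 6 group means was fitted with lmFit and eBayes, with 12 comparisons, Benjamini-Hochberg adjustment over all entries and a threshold of 0.05. Precision is limited by having 3 arrays in each group. The procedure was tested on simulated data.

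Replicates are cultures described as independent. Arrays with the same number in a genotype deviated together (r of 0.374 to 0.588 in 9 of 9 pairs, each highest with its own number), so the culture was also fitted as a block. No slide or batch was named. The rule for named genes took the members in every group, genes of the lists (chiefly Syk, Blnk, Btk, Il7r, Nfkb1, Nfkb2, Irf4, Irf8, detected ETS genes and the 2 largest changes per direction in a list), and the 5 tested genes with the highest Pearson correlation to each member. Xist, Eif2s3y and other named genes outside it were chosen after their values were seen. The members and lists were chosen with earlier results of these data known. The alternatives were normalization, background, offset, filter, block, samples and left-out arrays or cultures. Promoter sequences came from RefSeq for 2 of the 3 genes.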

Additional observations from a re-analysis of the deposited data

Results flagged for a closer look

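The withdrawal response differed between genotypes, by the test of the difference itself, for the following genes. The fitted Spic response difference, on the log2 scale, was 1.76 for Art-labelled minus Rag-labelled and 0.92 for Art:Nfkb2-labelled minus Rag-labelled cultures. Only Art-labelled cultures after withdrawal detected the probe, so neither value is a measured size. The fitted Fcer2a response was 1.5 and 2.07 larger in the same comparisons. Its probe was not detected in Rag-labelled cultures in either condition or in Art-labelled cultures in IL-7, so these are no measured sizes either. The Art-labelled minus Rag-labelled response was 0.63 for Blvra. Ctc1 (0.61 and 0.49) and Adipoq (1.40) were named for their correlation with Spic on these arrays, so their values restate that choice. The surrogate light chain genes went the other way. Vpreb3 had -0.65 in both comparisons, and Vpreb1 had -2.39 in Art:Nfkb2-labelled minus Rag-labelled cultures.

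The limma adjusted p-values were 6.53e-04 and 0.0150 for Spic, 0.00788 and 5.17e-04 for Fcer2a, 0.0486 for Blvra, 0.0313 and 0.0207 for Vpreb3 and 0.00138 for Vpreb1. Calls were lost under 29 of 39 alternatives for Blvra, 17 and 13 for Vpreb3, 2 for Art-labelled Fcer2a and 5 for Art:Nfkb2-labelled Spic, and under 0 for Art-labelled Spic, Art:Nfkb2-labelled Fcer2a and Vpreb1.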

How the results depend on the processing

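Of the 39 alternatives, 18 left out an array, 9 a culture and 12 changed the processing. 2 of these, median centring over all probes and a detection p of 0.05, were chosen after seeing the data. No call of a member reversed. The Spic response of Art:Nfkb2-labelled minus Rag-labelled cultures was 0.80 (adjusted p = 0.0507) with arrays scaled to a common median, 0.38 (0.120) without background correction and 0.92 (0.0608) with a trend and robust fit. The cause was not tested. Spi1 after withdrawal in Rag-labelled cultures was 0.35 (adjusted p = 0.0771) when only the groups compared were fitted, and 0.23 (0.220) with centring over all probes, which gave 0.33 (0.0731) in Art-labelled cultures. Leaving out an array or a culture gave 0.73 to 1.04 for that Spic response, where the lost calls were 0.87 each. It gave 0.24 to 0.39 for Spi1 with withdrawal in Art:Nfkb2-labelled cultures (lost at 0.24, 0.25 and 0.34), 0.26 to 0.41 in Art-labelled cultures (lost at 0.26 without replicate 3, as an array or a culture) and 0.24 to 0.44 in Rag-labelled cultures (lost at 0.24).

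With the replicate block, the calls of Spic in the response of Art:Nfkb2-labelled minus Art-labelled cultures (-0.84, adjusted p = 0.0473) and of Spib in IL-7 between Art-labelled and Rag-labelled cultures (0.42, 0.0444) were gained, and no other member call changed. An offset of 50 also gave the first (-0.72, adjusted p = 0.0276).

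Counts of calls over all entries moved by over 1.5 times as follows. Fitting only the groups compared gave 2094 against 3753 for withdrawal in Rag-labelled cultures, 980 against 1607 for Art-labelled minus Rag-labelled cultures after withdrawal, and 248 against 546 for the same in IL-7. It gave 617 against 963 for Art:Nfkb2-labelled minus Rag-labelled cultures in IL-7. For the responses it gave 42 against 107 (Art-labelled minus Rag-labelled), 39 against 18 (Art:Nfkb2-labelled minus Art-labelled) and 108 against 164 (Art:Nfkb2-labelled minus Rag-labelled). Centring over all probes gave 246 against 371 for Art:Nfkb2-labelled minus Art-labelled cultures in IL-7, and 57 and 8 for the first and second response. The second response had 11 calls without background correction and 9 without the filter, and 0 to 34 with an array or culture left out. Leaving out an array or culture gave 28 to 205 for the first response and 59 to 311 for the third. It gave 296 to 829 for Art-labelled minus Rag-labelled cultures in IL-7. The lowest such counts were 172 against 371 for Art:Nfkb2-labelled minus Art-labelled and 613 against 963 for Art:Nfkb2-labelled minus Rag-labelled cultures in IL-7, 200 against 337 for Art:Nfkb2-labelled minus Art-labelled cultures after withdrawal, and 2261 against 3428 for withdrawal in Art:Nfkb2-labelled cultures. Centring over all probes also moved the share of calls that were higher to 33.7% from 56.2% for Art-labelled minus Rag-labelled and to 33.1% from 58.6% for Art:Nfkb2-labelled minus Rag-labelled cultures in IL-7. For their responses it moved to 77.2% from 61.7% and to 80.5% from 51.2%, with all-entry medians shifted by 0.11 and 0.21.

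Signal over background limits Spic, with 15 of its 18 values not well above background.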

Other observations

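Spic was the only 1 of 8446 entries that was detected on all 3 Art-labelled arrays after withdrawal and on no other array. The same count was 2 for Art:Nfkb2-labelled and 5 for Rag-labelled cultures after withdrawal, and 2, 1 and 2 for Art:Nfkb2-labelled, Art-labelled and Rag-labelled cultures in IL-7.

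The values deposited by the authors for Spic come from the same arrays and are no separate support. Only the Art-labelled arrays after withdrawal detected the probe. The deposited values after withdrawal averaged 39.6 ± 8.6 in Art:Nfkb2-labelled, 124.4 ± 11.3 in Art-labelled and 1.5 ± 11.2 in Rag-labelled cultures (SD, n = 3 each). In IL-7 they averaged -2.0 ± 3.9 in Art:Nfkb2-labelled, 19.8 ± 5.5 in Art-labelled and -4.2 ± 8.0 in Rag-labelled cultures.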
